A study of Mus musculus with 9 samples.

Results

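The genes that govern entry into the cell cycle from G1 were followed in myeloid cells sorted from dystrophic muscle. They are the 3 D-type cyclins *Ccnd1*, *Ccnd2*, and *Ccnd3*, their kinases *Cdk4* and *Cdk6*, the kinase inhibitors *Cdkn1a*, *Cdkn1b*, *Cdkn2c*, and *Cdkn2d*, and *Rb1*, the pocket protein that these kinases phosphorylate. The 10 genes were chosen by symbol from the 50559 genes listed in each count file, and all 10 had enough counts to be tested. The mice were *mdx* mice, which lack dystrophin in every group, controls included, and were 4.5 weeks old. For 7 days they drank vehicle (a sucralose-containing solution), spironolactone, a mineralocorticoid receptor (MR) antagonist, or prednisolone, a glucocorticoid receptor (GR) agonist. Quadriceps cells were sorted as CD45+CD11b+, a gate that takes myeloid cells together, macrophages, monocytes, and neutrophils alike. Each group had 3 RNA-Seq libraries, and each library pooled the cells of 3 mice. The groups held both sexes, with more females and fewer males in the prednisolone group than in the vehicle and spironolactone groups. The division of the sexes among pools is not given in the sources used here. There was no untreated or WT group.

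D-type cyclins are made in response to growth signals and activate CDK4 and CDK6, which phosphorylate RB1 and so release the E2F transcription factors from it. E2F factors then drive cyclin E, cyclin A, and the genes of DNA replication, and cyclin E with CDK2 completes the phosphorylation of RB1. Inhibitors of the INK4 family (*Cdkn2c*, *Cdkn2d*) bind CDK4 and CDK6, whereas those of the CIP/KIP family (*Cdkn1a*, *Cdkn1b*) bind cyclin-CDK complexes and act mainly on CDK2. Macrophages of injured muscle can divide locally, and glucocorticoids are known to act on the division of many cell types.

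Promoter sequences are shown for the genes with the clearest separation between prednisolone and vehicle libraries among those matched, namely the inhibitors *Cdkn2c* and *Cdkn1b*, and *Ccne1*, the cyclin E gene that the same pathway drives. Of the 10 genes, 7 matched the RefSeq promoter table (GRCm38.p6, an older build than the mm39 of the counts); *Ccnd1*, *Ccnd2*, and *Rb1* did not. Each sequence is the 250 bases before a transcription start, 5′ to 3′ on the gene's own strand, at chr4:109666757-109667006 (- strand) and chr4:109665373-109665622 (- strand) for the 2 starts of *Cdkn2c*, chr6:134920151-134920400 (+ strand) for *Cdkn1b*, and chr7:38107491-38107740 (- strand) for *Ccne1*. Capitals mark matches to the letters searched.
Cdkn2c, upstream start: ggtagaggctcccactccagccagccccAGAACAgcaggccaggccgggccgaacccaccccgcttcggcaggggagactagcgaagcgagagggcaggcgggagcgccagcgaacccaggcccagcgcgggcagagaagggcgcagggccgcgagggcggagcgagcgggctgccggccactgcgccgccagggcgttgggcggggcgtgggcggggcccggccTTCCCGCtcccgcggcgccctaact
Cdkn2c, downstream start: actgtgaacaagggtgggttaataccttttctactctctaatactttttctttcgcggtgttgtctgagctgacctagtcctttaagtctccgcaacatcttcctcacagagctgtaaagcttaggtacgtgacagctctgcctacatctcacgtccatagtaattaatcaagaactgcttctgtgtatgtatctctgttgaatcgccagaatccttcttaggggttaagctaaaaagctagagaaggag
Cdkn1b: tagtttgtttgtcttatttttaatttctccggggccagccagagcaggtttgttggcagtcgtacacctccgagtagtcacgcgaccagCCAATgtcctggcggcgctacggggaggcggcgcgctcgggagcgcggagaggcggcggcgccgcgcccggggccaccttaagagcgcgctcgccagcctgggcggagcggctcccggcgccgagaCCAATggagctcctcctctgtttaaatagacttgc
Ccne1: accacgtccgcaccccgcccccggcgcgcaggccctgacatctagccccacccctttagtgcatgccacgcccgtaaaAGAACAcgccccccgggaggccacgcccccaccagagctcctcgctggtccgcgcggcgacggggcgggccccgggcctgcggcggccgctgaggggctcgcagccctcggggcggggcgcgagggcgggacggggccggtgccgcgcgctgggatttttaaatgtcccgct
On both strands the search was for TTCCCGC or TTGGCGC (cores of E2F sites), for CCAAT (the box bound by NF-Y), for AGAACA (a part of glucocorticoid receptor sites), and for the full palindromic glucocorticoid response element, which contains AGAACA. Either E2F core was in 5.62% of the 32851 promoters of this length, CCAAT in 33.8%, AGAACA in 16.1%, and the full element in 0.00913%. The upstream start of *Cdkn2c* held TTCCCGC 25 bases and AGAACA 222 bases before the start, and the downstream start held none of the letters. *Cdkn1b* held CCAAT 161 and 35 bases before its start, and *Ccne1* held AGAACA 172 bases before its start. The full element was in no promoter of the 7 members. Of the members not shown, *Cdk6* held AGAACA (119 bases before its start), and *Ccnd3* (108) and *Cdkn2d* (220, on the opposite strand) held CCAAT. These matches are descriptions of sequence and were not tested for binding.

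Each library had between 31469815 and 32943512 counts on genes. The lowest count of any of the 10 genes was 283 (*Cdkn2c*, vehicle replicate 2), where counting alone gives an SD of 5.94%, and the highest was 13878 (*Cdkn1a*). Levels are CPM (counts scaled to a common library size) after TMM normalization, and changes are log2 fold changes ± SE from edgeR. A gene was called where its *P*, adjusted by Benjamini and Hochberg's method over all 16618 genes tested, was under 0.05. The 8 macrophage marker genes summed to between 7571 and 8950 CPM in every library. Among them *Itgam*, which encodes the sort marker CD11b, was called lower with spironolactone (978 to 1170 CPM) than with prednisolone (1281 to 1486 CPM; edgeR adjusted *P* = 0.0353), whereas *Cd68* (2884 to 3170 against 2298 to 2867 CPM) and *Fcgr1* (431 to 465 against 235 to 391 CPM) were at higher levels in every spironolactone library and were not called. DESeq2 also called *C1qa* higher with spironolactone than with prednisolone. The 8 lymphocyte genes summed to between 3.89 and 12.8 CPM. The 8 neutrophil genes summed to 2445 CPM in vehicle replicate 3 and 1727 CPM in spironolactone replicate 3, against 172 to 613 CPM in the other 7 libraries, and some results are also given without this pair of libraries. The neutrophil sum was higher in every spironolactone library (569, 613, and 1727 CPM) than in every prednisolone library (336, 364, and 241 CPM), and 7 of the 8 genes did not overlap between the drugs, where 30.3% of all genes tested did not. The 8 endothelial genes, of which none was at 0 in any library, summed to 104 to 147 CPM in vehicle, 187 to 259 CPM in spironolactone, and 137 to 164 CPM in prednisolone libraries, with the highest sum in spironolactone replicate 1.

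None of the 10 genes was called by edgeR between any 2 of the 3 groups. For prednisolone against vehicle, 3 of 10 had an unadjusted *P* under 0.05, where 14.2% of all genes tested had one and 1.76% were called; DESeq2 called 1, *Ccnd1* (4.64% of all genes). For spironolactone against vehicle, 2 of 10 had an unadjusted *P* under 0.05, where 9.29% of all genes had one and 0.0181% were called; DESeq2 called 0 (1.6% of all genes). For spironolactone against prednisolone, 5 of 10 had an unadjusted *P* under 0.05, where 22.5% of all genes had one and 5.17% were called; DESeq2 called 2, *Ccnd1* and *Cdk6* (10.1% of all genes). These results compare sorted pools, in which fewer cells of a type and less RNA per cell cannot be told apart, and *P* values measure the spread between pools of mice.

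**Figure D1:**
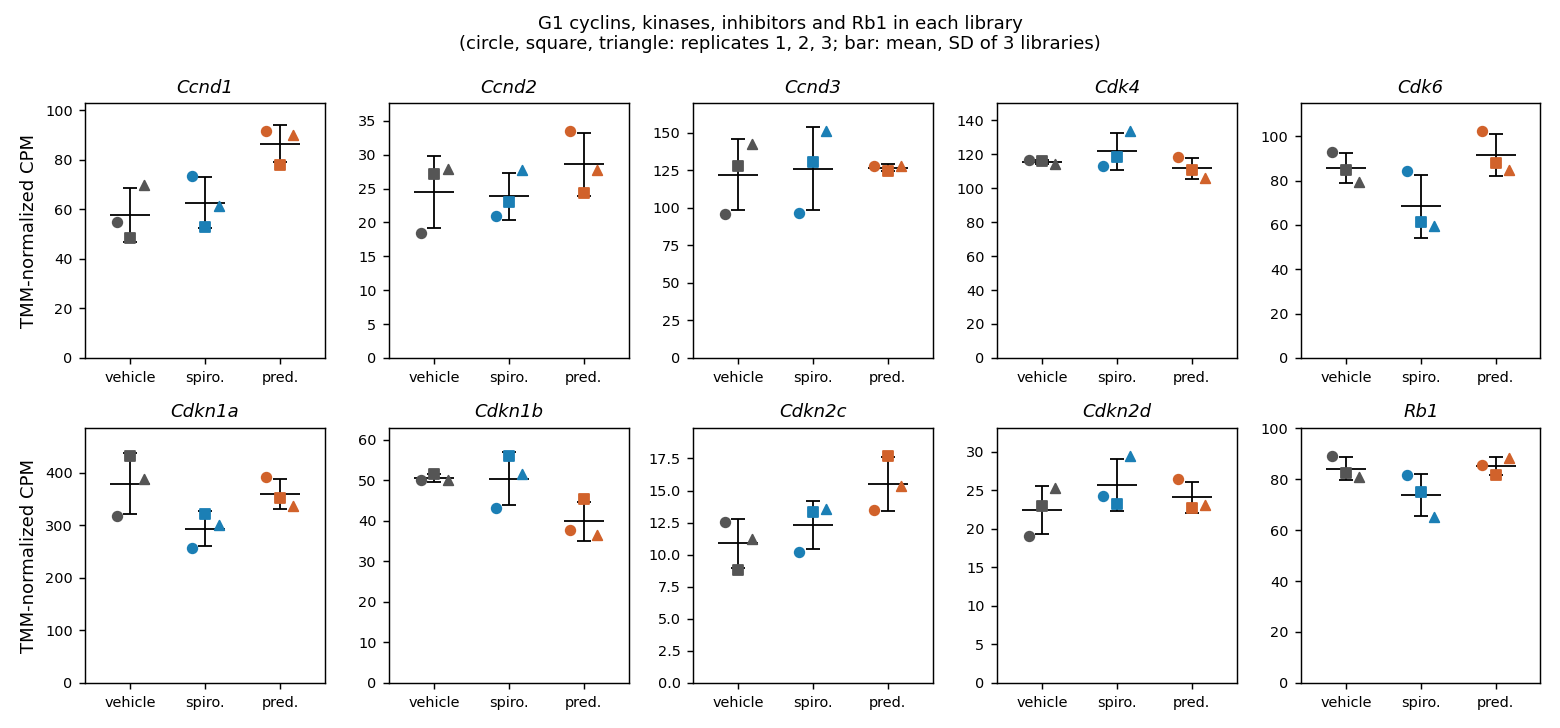
TMM-normalized CPM of the 10 genes in each of the 9 libraries (spiro., spironolactone; pred., prednisolone), with group means and SDs of 3 libraries as bars and each vertical axis starting at 0. All prednisolone libraries lie above all vehicle libraries for Ccnd1 (77.8 to 91.8 against 48.4 to 69.7 CPM) and Cdkn2c, and below them for Cdkn1b.

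*Ccnd1* encodes cyclin D1, the D-type cyclin most often linked to growth factor signaling. Its level was 55.0, 48.4, and 69.7 CPM in vehicle replicates 1 to 3, 73.5, 53.1, and 61.3 CPM in spironolactone, and 91.8, 77.8, and 90.0 CPM in prednisolone libraries. Every prednisolone library lay above every other library, whereas the vehicle and spironolactone libraries overlapped. Between prednisolone and vehicle the log2 fold change was 0.58 ± 0.14 (95% interval 0.28 to 0.89), a level 1.5-fold that of vehicle, with an edgeR adjusted *P* of 0.0611. Between spironolactone and prednisolone it was -0.47 ± 0.14 (-0.77 to -0.16; adjusted *P* = 0.0756). Between spironolactone and vehicle it was 0.12 ± 0.14 (-0.19 to 0.43; adjusted *P* = 0.871). The 8 myogenic genes, of which none was at 0 in any library, also summed higher in all prednisolone libraries (277 to 399 CPM) than in all vehicle libraries (165 to 265 CPM). Most of that sum was *Acta1*, skeletal muscle actin (175 to 251 CPM with prednisolone). The change between prednisolone and vehicle was above 0 for 6 of the 8 myogenic genes (median 0.41). *Pax7* and *Myf5* had higher means with prednisolone, with overlapping libraries. *Myod1*, a transcription factor of muscle precursors, was lower in every prednisolone library (4.13 to 7.57 CPM) than in every vehicle library (7.95 to 8.02 CPM). The 8 fibro-adipogenic genes overlapped in their sums (828 to 926 and 647 to 939 CPM). The myogenic sum was 294 to 483 CPM in spironolactone libraries. Of the 8 neutrophil genes, 7 had a change below 0 between prednisolone and vehicle (median -4.28), with overlapping sums (241 to 364 and 172 to 2445 CPM), and DESeq2 called *Ltf* and *Mpo* lower where edgeR called none (4 had an unadjusted *P* under 0.05). The CD45+CD11b+ gate is meant to take neutrophils but not myogenic or fibro-adipogenic cells, although genes of both these lists were detected in every library. The part of any of these cells in the *Ccnd1* level was not tested.

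The call for *Ccnd1* turned on the processing. For prednisolone against vehicle the adjusted *P* was under 0.05 in 4 of 7 other settings, namely with DESeq2 (0.00581), without a low-count filter (8.09e-06), with the replicate number as a block (0.0130), and without vehicle replicate 3 and spironolactone replicate 3 (0.0403). It was also under 0.05 in 2 of the 9 edgeR fits that each left out 1 library, at 0.0225 without vehicle replicate 3 and 0.0358 without spironolactone replicate 1, and was at most 0.194 in the others. The change stayed above 0 throughout, between 0.47 and 0.75. For spironolactone against prednisolone it was under 0.05 in 4 of 7 settings and in 2 of 9 fits, and the change stayed below 0.

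*Ccnd2* encodes cyclin D2, which many blood cells use. It measured 18.4, 27.1, and 27.9 CPM in vehicle, 20.9, 23.0, and 27.7 CPM in spironolactone, and 33.5, 24.4, and 27.7 CPM in prednisolone libraries. The 3 groups overlapped, and the change between prednisolone and vehicle was 0.22 ± 0.17 (-0.14 to 0.59; edgeR adjusted *P* = 0.614). With 1 library left out, this change ranged from 0.05 to 0.33. *Ccnd3*, which encodes cyclin D3, measured 96.2, 128, and 143 CPM in vehicle, 96.8, 130, and 151 CPM in spironolactone, and 128, 125, and 128 CPM in prednisolone libraries. Its group means differed by less than the spread between replicates, with a change of 0.05 ± 0.16 (-0.30 to 0.41) between prednisolone and vehicle and 0.05 ± 0.16 (-0.31 to 0.40) between spironolactone and vehicle. The coefficient of variation of *Ccnd3* was 1.62% among prednisolone libraries and 19.4% and 21.8% among vehicle and spironolactone libraries.

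Per length of the Ensembl canonical transcript, *Ccnd3* was the most abundant D-type cyclin transcript in all 9 libraries. It made up 75.9% ± 2.77% of the summed CPM per kb of the 3 cyclins for vehicle libraries, 75.0% ± 6.15% for spironolactone, and 69.8% ± 1.76% for prednisolone (SD, *n* = 3 each). The share of *Ccnd1* was 19.3% ± 3.22%, 20.4% ± 6.05%, and 25.3% ± 1.23% (SD) in the same order, and that of *Ccnd2* was 4.84%, 4.56%, and 4.99%. The prednisolone libraries (23.8% to 26.0% *Ccnd1*) lay above the vehicle libraries (15.9% to 22.3%). The highest library of all was spironolactone replicate 1, at 27.4%. With summed exon lengths in place of canonical transcripts, the share of *Ccnd1* was 43.4%, 44.9%, and 51.9%, and that of *Ccnd3* 47.3%, 46.4%, and 39.5%. By this measure *Ccnd1* lay above *Ccnd3* in every prednisolone library, in vehicle replicate 1, and in spironolactone replicate 1. The split between *Ccnd1* and *Ccnd3*, and which of them led, thus depends on the transcript lengths used.

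*Cdk4* encodes 1 of the 2 kinases that D-type cyclins activate. It was the most even of the 10 genes among vehicle libraries, at 117, 116, and 114 CPM, and measured 113, 118, and 134 CPM in spironolactone and 118, 111, and 106 CPM in prednisolone libraries. The groups overlapped, with changes of -0.05 ± 0.09 (-0.24 to 0.14) between prednisolone and vehicle and 0.07 ± 0.09 (-0.12 to 0.26) between spironolactone and vehicle. Between spironolactone and prednisolone the change was 0.12 ± 0.09 (-0.06 to 0.31; edgeR adjusted *P* = 0.436).

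*Cdk6*, the kinase that blood cell progenitors rely on, measured 93.1, 84.5, and 79.4 CPM in vehicle, 84.5, 61.1, and 59.4 CPM in spironolactone, and 103, 88.0, and 84.7 CPM in prednisolone libraries. Spironolactone replicates 2 and 3 were lower than all other libraries, whereas spironolactone replicate 1 was within the vehicle range. Between spironolactone and prednisolone the groups did not overlap, with 84.5 and 84.7 CPM as the nearest libraries, and the change was -0.43 ± 0.13 (-0.71 to -0.14; edgeR adjusted *P* = 0.0760). Between spironolactone and vehicle it was -0.33 ± 0.13 (-0.61 to -0.05; edgeR adjusted *P* = 0.459), and between prednisolone and vehicle 0.10 ± 0.13 (-0.18 to 0.38; adjusted *P* = 0.801). The difference between the drugs was under the threshold in 3 of 7 other settings (DESeq2, no low-count filter, and the replicate block; lowest adjusted *P* = 0.00219) and without spironolactone replicate 1 (edgeR adjusted *P* = 0.0114), and it stayed below 0 in all fits. Without vehicle replicate 3 and spironolactone replicate 3 it was -0.34 (edgeR adjusted *P* = 0.246).

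The ratio of *Cdk6* to *Cdk4* counts does not depend on the scaling of a library. It was 0.741 ± 0.0528 for vehicle libraries, 0.570 ± 0.160 for spironolactone, and 0.821 ± 0.0413 for prednisolone (SD, *n* = 3 each). Spironolactone replicate 1 (0.750) lay among the vehicle libraries, and spironolactone replicates 2 and 3 lay below all others, the lowest at 0.444. Prednisolone libraries ranged from 0.795 to 0.869 and vehicle libraries from 0.694 to 0.798, so that these groups overlapped.

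*Cdkn1a* encodes p21, an inhibitor induced by p53 and by macrophage differentiation signals. It had the highest level of the 10 genes, also per transcript length, at 317, 433, and 389 CPM in vehicle, 257, 322, and 300 CPM in spironolactone, and 392, 352, and 337 CPM in prednisolone libraries. All spironolactone libraries lay below all prednisolone libraries, and 1 spironolactone library lay within the vehicle range. The change between spironolactone and vehicle was -0.37 ± 0.12 (-0.64 to -0.11), with an edgeR adjusted *P* of 0.311 that was under 0.05 only without a low-count filter (0.0485) among 7 settings and 9 fits. Between spironolactone and prednisolone it was -0.30 ± 0.12 (-0.56 to -0.03; adjusted *P* = 0.166), and between prednisolone and vehicle -0.08 ± 0.12 (-0.34 to 0.19; adjusted *P* = 0.843).

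*Cdkn1b* encodes p27, an inhibitor kept high in resting cells. Its level was 50.0, 51.6, and 50.0 CPM in vehicle, 43.2, 56.1, and 51.6 CPM in spironolactone, and 37.6, 45.4, and 36.5 CPM in prednisolone libraries. Every prednisolone library lay below every vehicle library, and prednisolone replicate 2 lay above spironolactone replicate 1. The change between prednisolone and vehicle was -0.34 ± 0.11 (-0.58 to -0.10), a level 0.789-fold that of vehicle (edgeR adjusted *P* = 0.154). Between spironolactone and prednisolone it was 0.34 ± 0.11 (0.10 to 0.57; adjusted *P* = 0.0917), and 0.0415 without spironolactone replicate 1. Between spironolactone and vehicle it was -0.01 ± 0.11 (-0.24 to 0.23; edgeR adjusted *P* = 0.994).

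*Cdkn2c* encodes p18, an INK4 inhibitor of CDK4 and CDK6 that is itself among the genes E2F factors can induce. It had 12.5, 8.83, and 11.2 CPM in vehicle, 10.2, 13.3, and 13.5 CPM in spironolactone, and 13.5, 17.7, and 15.4 CPM in prednisolone libraries. The prednisolone libraries lay above the vehicle libraries and overlapped with the spironolactone libraries, the lowest prednisolone library being level with the highest spironolactone library. The change between prednisolone and vehicle was 0.51 ± 0.16 (0.16 to 0.87; edgeR adjusted *P* = 0.146), and it was under the threshold without a low-count filter (adjusted *P* = 0.0233) and without vehicle replicate 1 (0.0483). Between spironolactone and prednisolone it was -0.33 ± 0.16 (-0.68 to 0.02; edgeR adjusted *P* = 0.248), and between spironolactone and vehicle 0.18 ± 0.16 (-0.17 to 0.54; adjusted *P* = 0.798).

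*Cdkn2d*, which encodes the INK4 inhibitor p19, measured 19.1, 23.0, and 25.3 CPM in vehicle, 24.3, 23.1, and 29.5 CPM in spironolactone, and 26.4, 22.7, and 23.0 CPM in prednisolone libraries. The groups overlapped in each comparison. The change was 0.10 ± 0.13 (-0.17 to 0.38) between prednisolone and vehicle and 0.19 ± 0.13 (-0.08 to 0.47; edgeR adjusted *P* = 0.699) between spironolactone and vehicle. With 1 library left out, the change with spironolactone ranged from 0.08 to 0.28.

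*Rb1* was at 89.3, 82.3, and 81.0 CPM in vehicle, 81.5, 75.2, and 65.2 CPM in spironolactone, and 85.5, 81.8, and 88.5 CPM in prednisolone libraries. The spironolactone libraries lay below the prednisolone libraries, with 81.5 and 81.8 CPM as the nearest libraries, and 1 lay within the vehicle range. The change was -0.20 ± 0.09 (-0.41 to -0.00236) between spironolactone and prednisolone (edgeR adjusted *P* = 0.217) and -0.19 ± 0.09 (-0.39 to 0.02) between spironolactone and vehicle (adjusted *P* = 0.580). Between prednisolone and vehicle it was 0.02 ± 0.09 (-0.18 to 0.22). With 1 library left out, the change between spironolactone and vehicle ranged from -0.26 to -0.11.

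**Figure D2:**
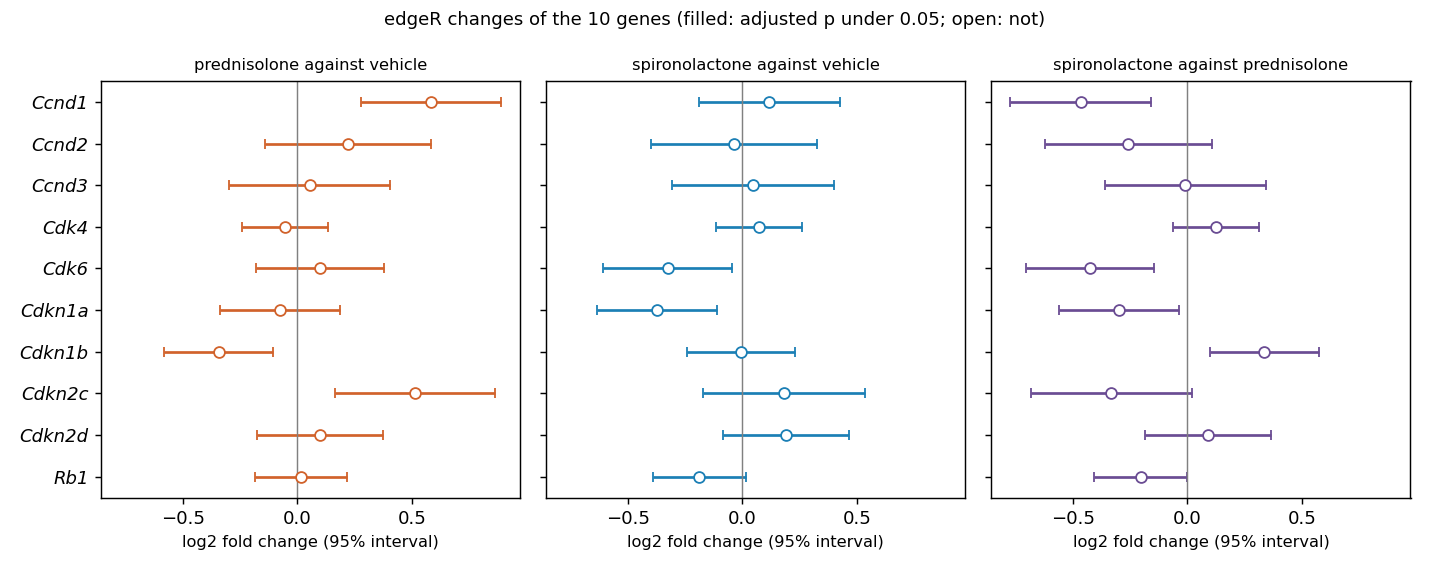
Log2 fold changes of the 10 genes in the 3 comparisons, with 95% intervals from edgeR and open points for an adjusted P not under 0.05. The intervals of Ccnd1, Cdkn1b, and Cdkn2c exclude 0 for prednisolone against vehicle, and those of Cdk6 and Cdkn1a for spironolactone against vehicle; no point is filled.

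Counting the genes whose libraries did not overlap gave 3 of 10 for prednisolone against vehicle (*Ccnd1* and *Cdkn2c* higher, *Cdkn1b* lower), where 19.7% of all genes tested did not overlap. It gave 0 of 10 for spironolactone against vehicle, where 13.5% did not. It gave 4 of 10 for spironolactone against prednisolone (*Ccnd1*, *Cdk6*, *Cdkn1a*, and *Rb1*, all lower with spironolactone), where 30.3% did not. The median log2 fold change of the 10 genes was 0.08, 0.02, and -0.23 in these comparisons, beside -0.01, 0.00, and 0.03 for all genes tested. The comparisons share libraries, so that their counts are not independent of each other.

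The 3 genes that separated prednisolone from vehicle libraries were set against each other as ratios of counts within a library; since 2 lay higher and 1 lower, that these ratios separate prednisolone from vehicle follows from the choice of genes. The ratio of *Ccnd1* to *Cdkn1b* was 1.10, 0.938, and 1.39 for vehicle replicates 1 to 3, 1.70, 0.946, and 1.19 for spironolactone, and 2.44, 1.71, and 2.47 for prednisolone. The lowest prednisolone library (1.71) lay next to spironolactone replicate 1 (1.70), and both lay above all vehicle libraries. The ratio of *Cdkn2c* to *Cdkn1b* averaged 0.216 ± 0.0405 for vehicle libraries, 0.245 ± 0.0147 for spironolactone, and 0.390 ± 0.0306 for prednisolone (SD, *n* = 3 each). Here the lowest prednisolone library (0.359) lay above the highest of the other 6 (0.262). The ratios have no test.

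**Figure D3:**
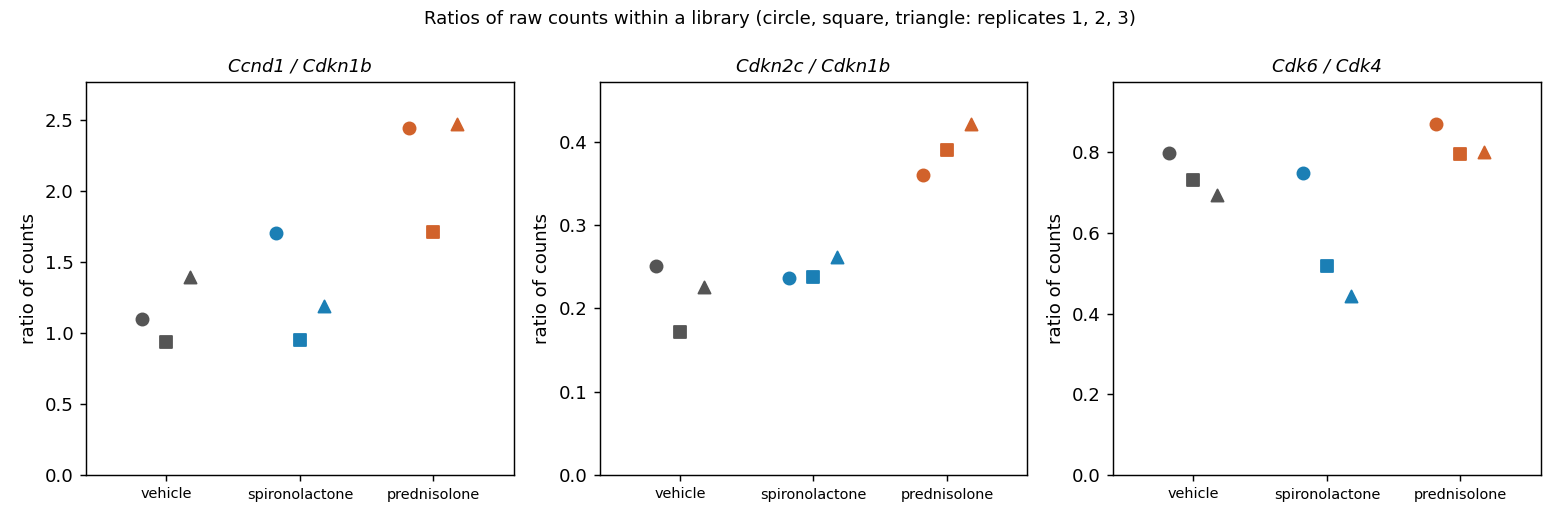
Ratios of raw counts of 2 genes within each of the 9 libraries, on axes that start at 0. The prednisolone libraries lie above all others for Ccnd1 to Cdkn1b and Cdkn2c to Cdkn1b, and spironolactone replicates 2 and 3 lie below all others for Cdk6 to Cdk4.

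Across the 10 genes, CPM per kb of canonical transcript in vehicle libraries ran from 197 ± 30.3 for *Cdkn1a* through 60.5 ± 11.8 for *Ccnd3* and 55.5 ± 0.566 for *Cdk4* to 3.87 ± 0.829 for *Ccnd2*. Between these lay *Rb1* (16.8), *Ccnd1* (15.2), *Cdkn2d* (14.5), *Cdkn1b* (11.1), *Cdk6* (7.35), and *Cdkn2c* (4.03). *Ccnd3* and *Cdk4* overlapped in their ranges, as did *Rb1*, *Ccnd1*, and *Cdkn2d*, and *Cdkn2c* and *Ccnd2*, so that the order within each of these sets is not resolved. With summed exon lengths *Cdkn1a* and *Cdk4* led, at 62.8 and 33.6 CPM per kb, and *Ccnd3* was at 13.2 CPM per kb, below *Cdkn2d* (13.5).

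On GRCm39 (mm39), *Ccnd1* lies at chr7:144483668-144493662 (- strand), *Ccnd2* at chr6:127102125-127129156 (- strand), and *Ccnd3* at chr17:47815767-47910624 (+ strand). *Cdk4* lies at chr10:126895180-126903789 (+ strand) and *Cdk6* at chr5:3391485-3581008 (+ strand). *Cdkn1a* lies at chr17:29309936-29319701 (+ strand), *Cdkn1b* at chr6:134897364-134902476 (+ strand), *Cdkn2c* at chr4:109517957-109524386 (- strand), *Cdkn2d* at chr9:21199700-21202727 (- strand), and *Rb1* at chr14:73421113-73563507 (- strand). Each of the 10 is overlapped by at least 1 annotated gene on the opposite strand. The strand setting of the counting is not given in the sources used here. It is thus not known whether strand was used to separate the reads of a gene and its partner. Reads marked as ambiguous, 2.16% to 2.35% of the total in each library, were assigned to no gene. How far the overlaps altered the levels was not tested. Beside *Cdk4*, *Tspan31* had 96.6 to 109 CPM, and beside *Rb1*, *Rcbtb2* had 48.4 to 79.2 CPM. *Rcbtb2* was called higher with spironolactone than with prednisolone (log2 fold change 0.43, edgeR adjusted *P* = 0.0271), the opposite sign to *Rb1*. *LTO1*, beside *Ccnd1*, had 7.31 to 11.2 CPM and a change of -0.04 (edgeR adjusted *P* = 0.945) between prednisolone and vehicle. *Bysl*, beside *Ccnd3*, had 19.5 to 30.8 CPM and was not called in any comparison.

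Inside the vehicle and spironolactone groups, the levels of some members varied with the neutrophil sums, and how many of all genes did so was not counted. The neutrophil sums also separated the drugs, as the levels of *Ccnd1*, *Cdk6*, *Cdkn1a*, and *Rb1* did. The directions were opposite, with the sums higher and these 4 genes lower with spironolactone than with prednisolone. *Ccnd3* was highest in the pair of libraries with the highest neutrophil sums (151 CPM in spironolactone replicate 3 and 143 CPM in vehicle replicate 3) and lowest in vehicle replicate 1 (96.2 CPM), which had the lowest neutrophil sum. *Cdkn2d* was also highest in spironolactone replicate 3 and lowest in vehicle replicate 1. Its level was nonetheless lower in spironolactone replicate 2 (23.1 CPM) than in spironolactone replicate 1 (24.3 CPM), although replicate 2 had the higher neutrophil sum (613 against 569 CPM). *Cdk6* was lowest in spironolactone replicate 3, and within the vehicle group it was lowest in replicate 3. The prednisolone group did not follow this order, with the lowest *Cdk6* level (84.7 CPM) in replicate 3, which had the lowest neutrophil sum (241 CPM), and the lowest *Cdkn2d* level (22.7 CPM) in replicate 2, which had the highest (364 CPM). Of the 8 neutrophil genes, 1 was at 0 in each of prednisolone replicates 1 and 3 (*Mpo*, myeloperoxidase, and *Elane*, neutrophil elastase), and none in the other 7 libraries. Without the pair, the change of *Ccnd3* between prednisolone and vehicle was 0.19 (0.05 with all libraries), that of *Cdk6* between spironolactone and vehicle was -0.29 (-0.33 with all), and that of *Ccnd1* between prednisolone and vehicle was 0.75 (0.58 with all). Without the pair, *Ccnd1* between spironolactone and vehicle was 0.29 (0.12 with all), *Ccnd2* between prednisolone and vehicle was 0.33 (0.22), and *Cdkn2d* was 0.20 (0.10). Between the drugs and without the pair, *Ccnd1* was -0.46 (-0.47 with all), *Cdk6* -0.34 (-0.43), *Cdkn1a* -0.32 (-0.30), and *Rb1* -0.13 (-0.20). The other spironolactone libraries still had higher neutrophil sums than any prednisolone library, and the part of neutrophils in these differences, and in those of the E2F genes between the drugs, was not tested. The summed level of endothelial genes was higher in all spironolactone than in all other libraries, with 6 of 8 genes not overlapping with vehicle (13.5% of all genes tested) and 5 of 8 not overlapping with prednisolone libraries (30.3% of all). The same held for the sum of lymphocyte genes (8.63 to 12.8 CPM, against 3.89 to 8.29 CPM in the others, with 1 or 2 of 8 at 0 in every library). Between the drugs edgeR called 2 endothelial and 2 lymphocyte genes, all higher with spironolactone, where it called 5.17% of all genes. Between spironolactone and vehicle edgeR called 0 of either list, and DESeq2 called 4 endothelial genes higher (1.6% of all genes called). The myogenic sum in spironolactone libraries (294 to 483 CPM) was also above that in all vehicle libraries (165 to 265 CPM), and all 8 fibro-adipogenic genes had a change above 0 between spironolactone and vehicle (median 0.45), with overlapping sums (870 to 1254 and 647 to 939 CPM). In that comparison DESeq2 called *Acta1*, *Col3a1*, and *Dcn* higher, where edgeR called 0 of these 2 lists. The sort was for CD45+CD11b+ cells, a gate that lymphoid cells carrying CD11b would pass. Genes of the endothelial, myogenic, and fibro-adipogenic lists were nonetheless detected in every library. The part of all these cells in the lower *Cdk6* and *Cdkn1a* levels with spironolactone was not tested. Spironolactone replicate 1, with the highest endothelial sum (259 CPM), had the highest *Cdk6* and the lowest *Cdkn1a* level of its group.

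**Figure D4:**
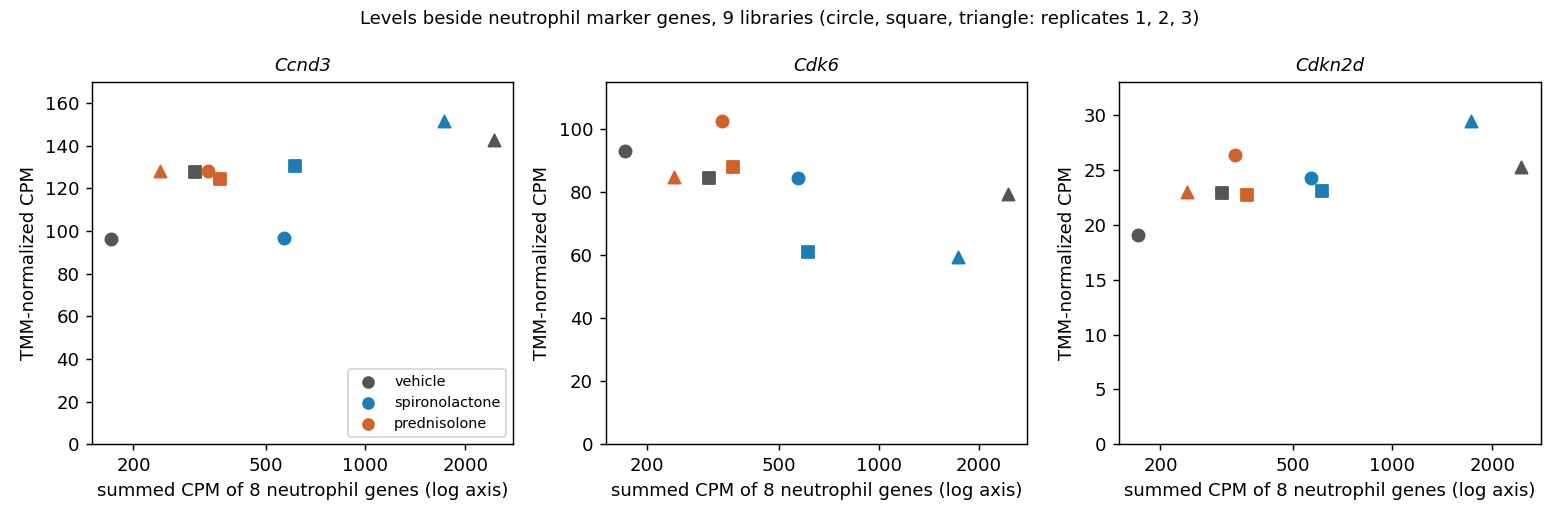
TMM-normalized CPM of Ccnd3, Cdk6, and Cdkn2d against the summed CPM of 8 neutrophil marker genes (log axis) in the 9 libraries. Vehicle replicate 3 (2445 CPM) and spironolactone replicate 3 (1727 CPM) stand to the right of the other 7 libraries, which reach 613 CPM at most.

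Of 28 other genes of the G1/S pathway, 26 had enough counts to be tested; the INK4 genes *Cdkn2a* and *Cdkn2b* had at most 15 counts in any library. With prednisolone against vehicle, 2 of 26 were called, both higher, where 1% of all genes tested were called higher. *Ccne1*, the cyclin E1 gene, had 6.93, 4.77, and 6.14 CPM in vehicle, 8.23, 4.81, and 6.49 CPM in spironolactone, and 12.9, 11.4, and 10.2 CPM in prednisolone libraries. All prednisolone libraries lay above all others. *Ccne1* rose by 0.95 ± 0.21 on the log2 scale (edgeR adjusted *P* = 0.0326), a level 1.93-fold that of vehicle. *Ccna2*, the cyclin A2 gene that acts in S phase and at entry into mitosis, had 34.8, 21.4, and 30.6 CPM in vehicle, 38.2, 27.4, and 36.6 CPM in spironolactone, and 47.9, 51.4, and 51.1 CPM in prednisolone libraries. It rose by 0.79 ± 0.16 (edgeR adjusted *P* = 0.0317), again with every prednisolone library above all others. Neither call held without vehicle replicate 2, without vehicle replicate 3, or without any 1 of the prednisolone replicates, where no pathway gene was called (9 to 11 had an unadjusted *P* under 0.05) and the edgeR adjusted *P* of the pair ranged up to 0.136. Nor did either hold without vehicle replicate 3 and spironolactone replicate 3 together (0.108 for *Ccna2*, and higher for *Ccne1*). Without vehicle replicate 1, the count of pathway genes called was 5. The doubt over the strand setting of the counting also covers *Ccne1* and *Ccna2*. On the opposite strand of *Ccne1*, *1600014C10Rik* had 30.6 to 60.6 CPM and a change of -0.37 with prednisolone (edgeR adjusted *P* = 0.412). Opposite *Ccna2*, *Exosc9* had 11.3 to 15.2 CPM and a change of 0.02 (edgeR adjusted *P* = 0.972).

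Over the 26 genes, 19 had a change above 0 with prednisolone, and the median was 0.20, beside -0.01 for all genes tested. *Ccne2* (0.78 ± 0.29, edgeR adjusted *P* = 0.229), *Myc* (0.23 ± 0.11, 0.363), *E2f1* (0.15 ± 0.09, 0.516), and *Cdk2* (0.03 ± 0.11, 0.945) did not pass the test. With spironolactone against vehicle, 0 of 26 were called by edgeR (1 at an unadjusted *P* under 0.05, *Fbxw7*, and 0 by DESeq2), and the median was 0.01, beside 0.00.

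Between the drugs, 4 of 26 pathway genes were called, all lower with spironolactone than with prednisolone, where 2.79% of all genes tested were called lower. They were *Ccne1* (-0.82 ± 0.20, edgeR adjusted *P* = 0.0352), *E2f8* (-0.39 ± 0.10, 0.0421), *Rbl1* (-0.36 ± 0.10, 0.0465), and *E2f2* (-0.38 ± 0.10, 0.0470). *E2f2* encodes an activating E2F factor, *E2f8* an atypical E2F that represses, and *Rbl1* the pocket protein p107, a relative of RB1. *Rbl1* measured 30.3 to 34.9 CPM in spironolactone and 40.9 to 43.0 CPM in prednisolone libraries, *E2f2* 32.2 to 37.3 and 43.5 to 46.7 CPM, and *E2f8* 21.2 to 22.6 and 28.2 to 29.9 CPM. None of these groups overlapped. Without vehicle replicate 3 and spironolactone replicate 3 together, no pathway gene was called between the drugs by edgeR (12 at an unadjusted *P* under 0.05), nor without spironolactone replicate 2, spironolactone replicate 3, or any 1 of the prednisolone replicates. The count was 2 without spironolactone replicate 1, 3 without vehicle replicate 2 or 3, and 6 without vehicle replicate 1.

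**Figure D5:**
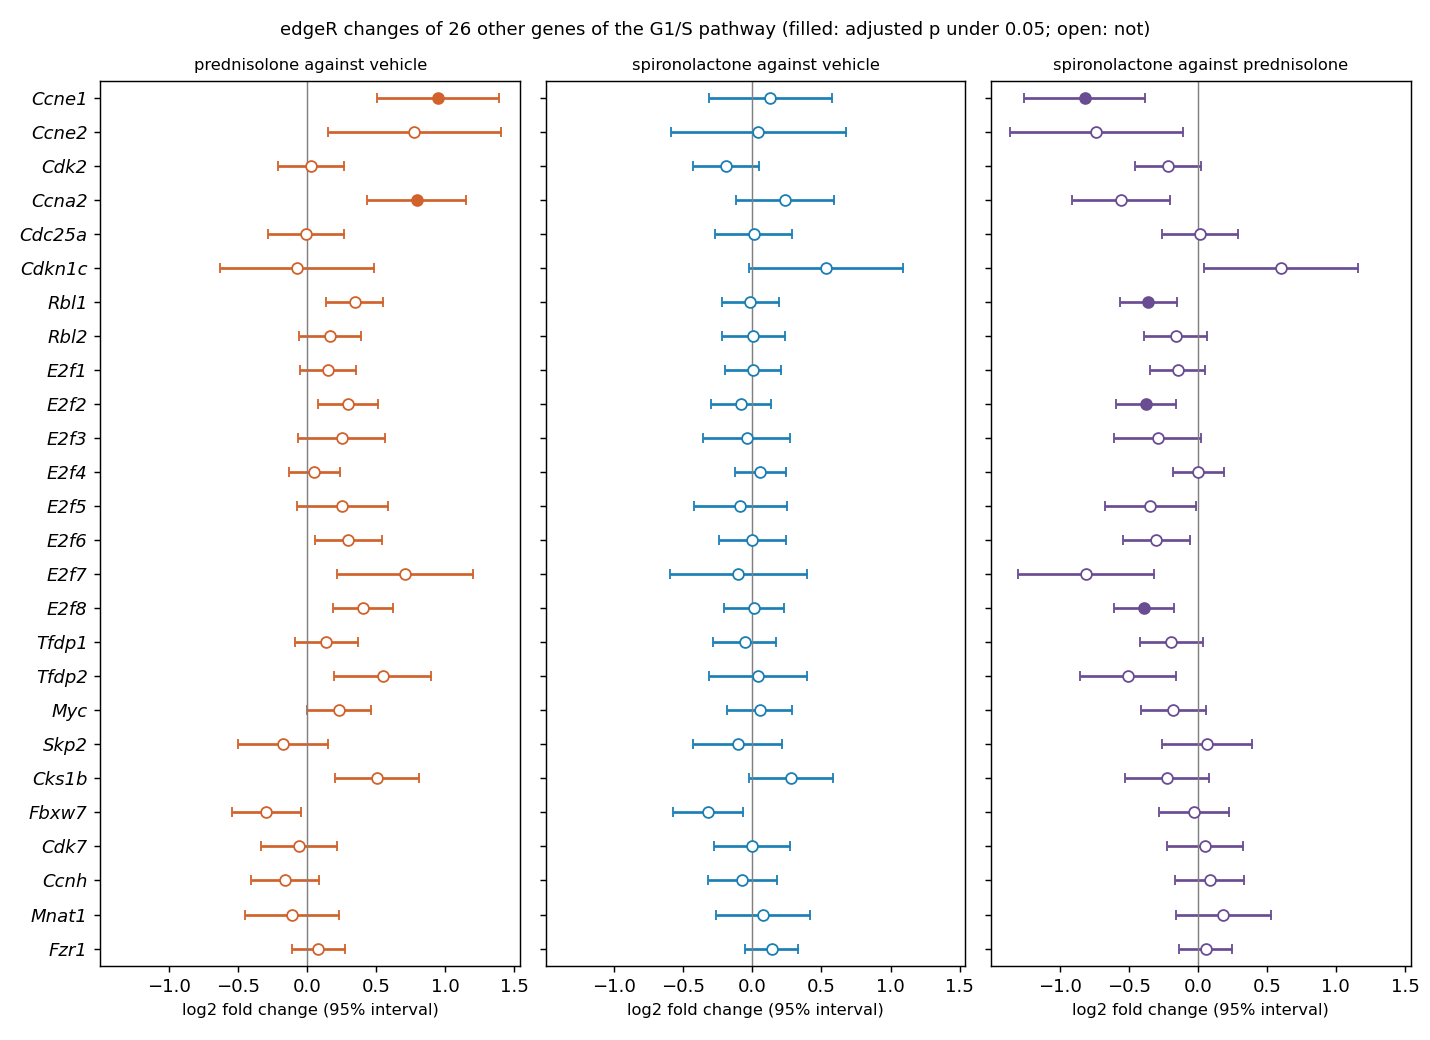
Log2 fold changes of the 26 tested genes of the G1/S pathway in the 3 comparisons, with 95% intervals from edgeR; filled points have an adjusted P under 0.05. Ccne1 and Ccna2 are filled for prednisolone against vehicle, none for spironolactone against vehicle, and Ccne1, Rbl1, E2f2, and E2f8, all below 0, for spironolactone against prednisolone.

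Genes of the later phases are set beside these for scale. Of 16 S phase genes, 2 were called higher with prednisolone than with vehicle and 4 lower with spironolactone than with prednisolone, among them *Mcm5*, a subunit of the replicative helicase (-0.47 ± 0.10, edgeR adjusted *P* = 0.0214); over all genes tested 1% and 2.79% were called in these directions. Of 16 G2/M genes, 9 were called higher with prednisolone and 8 lower with spironolactone than with prednisolone, among them the mitotic kinases *Plk1* (0.92 ± 0.13, edgeR adjusted *P* = 0.00376, with prednisolone) and *Bub1* (0.92 ± 0.16, 0.0122) and the cyclin *Ccnb2* (0.79 ± 0.12, 0.00577). DESeq2 called 7 S phase and 14 G2/M genes with prednisolone, and 5 and 13 between the drugs, where it called 4.64% and 10.1% of all genes. With spironolactone against vehicle, edgeR called 0 of the 16 S phase and 0 of the 16 G2/M genes (0 and 1 at an unadjusted *P* under 0.05), and DESeq2 called 0 of either. Without vehicle replicate 3 and spironolactone replicate 3, the counts were 0 S phase and 5 G2/M genes with prednisolone, and 3 and 4 between the drugs. With 1 library left out, the S phase counts ranged from 0 (without vehicle replicate 2 or any 1 prednisolone replicate) to 8 (without vehicle replicate 1) with prednisolone, and the G2/M counts from 2 (without prednisolone replicate 2) to 15 (without vehicle replicate 1). Between the drugs the S phase counts ranged from 0 (without spironolactone replicate 2 or any 1 prednisolone replicate) to 5 (without vehicle replicate 1 or 2), and *Mcm5* lost its call without spironolactone replicate 1 or 2 or any 1 prednisolone replicate (edgeR adjusted *P* up to 0.0886). The G2/M counts between the drugs ranged from 0 (without prednisolone replicate 2) to 13 (without vehicle replicate 1). *Plk1* and *Ccnb2* kept their calls with prednisolone in every one of these fits, *Bub1* in all but those without prednisolone replicate 2 or 3. The median change with prednisolone was 0.42 over the S phase list and 0.70 over the G2/M list, against 0.08 over the 10 G1 genes and 0.20 over the other pathway genes. The 10 G1 genes mix cyclins and kinases with inhibitors and *Rb1*. Of their changes 7 were above 0 and 3 below, and such opposite changes offset each other in a median. The summed level of the G2/M list was 379 to 613 CPM in vehicle and 744 to 847 CPM in prednisolone libraries. These lists were chosen with earlier results of these libraries known, and their medians were not tested against each other.

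The genes most like *Ccnd1*, the member with the smallest adjusted *P*, were sought by the mean absolute distance between log2 CPM values centered on their mean over the 9 libraries. Among the nearest of the genes tested were *Prnp* (0.102) and *Tbl2* (0.103), where the median gene was at 0.346. *Prnp*, the prion protein gene, had 11.6 to 13.6 CPM in vehicle, 12.9 to 17.6 CPM in spironolactone, and 18.6 to 21.4 CPM in prednisolone libraries. It was called higher with prednisolone, which its likeness to *Ccnd1* favors (0.68, edgeR adjusted *P* = 0.0191), though not without vehicle replicate 2 or any 1 prednisolone replicate (adjusted *P* up to 0.0879), whereas *Tbl2* (0.37, edgeR adjusted *P* = 0.154) was not.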

How the data were processed

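RNA-Seq counts of 9 libraries were analysed, 3 per group, each from CD45+CD11b+ quadriceps cells of 3 pooled mice. For the deposited counts, the authors aligned reads to mm39 with HISAT2 (2.2.1, per the submitters' processing notes) and counted them per gene with HTSeq (0.11.3), without normalization. The annotation release and strand setting are not given in the sources used here. Deposited tables of the authors' own DESeq2 (1.32.0) comparisons hold fold changes and p-values and were not used. Lines that name no gene held 17.2% to 21.8% of the total and were left out.

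Fits were run with edgeR 4.0.16 and DESeq2 1.42.0 (limma 3.58.1, R 4.3.3). Of 50559 genes, 16618 passed filterByExpr (minimum count 10, minimum total 15) and 33941 were left out. Differences were tested with the edgeR quasi-likelihood F test (TMM, robust=TRUE, all 9 libraries in one fit, group only), as a two-sided test, and p-values were adjusted over all genes tested by the Benjamini-Hochberg method (threshold 0.05). The tool was tested on simulated data with known changes. Positions, overlaps, and transcript lengths are from GENCODE on GRCm39. Marker sums are untrimmed sums of CPM. Libraries of 1 group differed far beyond sampling noise (chi-square per degree of freedom 18.0 to 57.8), and each was counted as 1 replicate.

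The 10 genes and all gene lists were chosen with earlier results of these data known. Named genes are the 10 in every comparison; *Ccne1*, *Ccne2*, *Cdk2*, *E2f1*, and *Myc* whatever their values; at most the 3 smallest adjusted p per comparison and direction over the G1/S, S phase, and G2/M lists; the 3 genes (of which 1 is not reported here) nearest to the member with the smallest adjusted p; and genes that overlap a member. *Ccna2*, *E2f2*, *E2f8*, *Rbl1*, *Fbxw7*, and the marker genes named fall outside that rule and were named after their values were seen, to account for small counts or sums. *1600014C10Rik* and *Exosc9* also fall outside it and were named because they overlap *Ccne1* and *Ccna2*. Alternatives were DESeq2, RLE, library totals only, no low-count filter, 2 groups in the fit, a replicate block, and each library left out. Leaving out vehicle replicate 3 and spironolactone replicate 3 together, and summed exon lengths, were added after the data were seen.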

Additional observations from a re-analysis of the deposited data

How the results depend on the processing

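The count of the 10 genes called was 0 in each comparison. For prednisolone against vehicle it was 1 with DESeq2, 2 without a low-count filter, 1 with the replicate block, and 1 without vehicle replicate 3 and spironolactone replicate 3. For spironolactone against vehicle it was 1 without a low-count filter. For spironolactone against prednisolone it was 2 with DESeq2, 2 without a filter, 1 with 2 groups in the fit, and 2 with the block. Leaving out 1 library gave 0 to 1, 0, and 0 to 3, the last without spironolactone replicate 1.

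Pathway genes called numbered 4, 7, and 0 (against 2) for prednisolone against vehicle with DESeq2, without a filter, and without the pair of libraries, and 7, 9, and 0 (against 4) between the drugs; leaving out 1 library gave 0 to 5, 0, and 0 to 6. Over all genes, the 293 called with prednisolone became 684, 1019, and 120 in these settings (69 to 826 with 1 library left out). The 3 called with spironolactone became 263, 528, and 0 (990 at an unadjusted p under 0.05), and 8 with the block (0 to 34). The 859 between the drugs became 1594, 1940, and 285, and 1598 with 2 groups (232 to 1898). The replicate number paired libraries weakly at most. Of 9 same-numbered pairs, correlations of deviations ran from -0.04 to 0.15, and 4 of 9 libraries correlated best with their own number. The 2 over 0.1 joined vehicle and spironolactone, at 0.12 for replicates 1 and 0.15 for replicates 3. Same-numbered pairs with prednisolone reached 0.02 at most. Whether vehicle and spironolactone libraries were matched by number is not given.

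Of 210 values of the 10 genes under settings other than leaving out 1 library, 194 kept their direction and side of the threshold, 13 passed it, and 3 turned sign, all without the pair of libraries: *Rb1* with prednisolone (-0.00613), *Cdk4* with spironolactone (-0.0137), and *Cdkn2d* between the drugs (-0.0290). *E2f1* with spironolactone was -0.00382 with DESeq2, -0.00273 with RLE, -0.00735 with library totals, and -0.11 without the pair, where *E2f8* was -0.0609, *Rbl1* 0.0263, and *Tbl2* 0.0607. Small changes also crossed 0 with 1 library left out. The ranges with prednisolone were *Ccnd3* -0.0907 to 0.19, *Cdkn1a* -0.19 to 0.0299, *Cdkn2d* -0.00297 to 0.20, *Rb1* -0.00918 to 0.0623, and *Cdk2* -0.0457 to 0.0900. With spironolactone they were *Ccnd1* -0.0128 to 0.27, *Ccnd2* -0.21 to 0.0627, *Ccnd3* -0.11 to 0.21, *Cdk4* -0.00237 to 0.12, *Cdkn1b* -0.0924 to 0.0922, *Bub1* -0.0413 to 0.20, *Mcm5* -0.15 to 0.0233, *Ccne1* -0.0746 to 0.31, *Ccne2* -0.20 to 0.28, *E2f1* -0.0753 to 0.0574, *Myc* -0.0259 to 0.13, *E2f8* -0.0435 to 0.10, *Rbl1* -0.0753 to 0.0558, and *Tbl2* -0.13 to 0.0701. Between the drugs they were *Ccnd3* -0.16 to 0.15 and *Cdkn2d* -0.0231 to 0.16. The cause of these shifts was not tested.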
